A study of Ciona robusta with 3 samples.

Results

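Tail muscle cells of the B7.5 lineage of the tunicate Ciona robusta were compared between CRISPR conditions that target a cardiopharyngeal transcription factor gene and their control at 12 hours post fertilization (hpf). In Ciona, each founder cell of the B7.5 lineage divides into a cardiopharyngeal progenitor (trunk ventral cell), which migrates and later gives rise to heart and pharyngeal muscle, and an anterior tail muscle cell, which stays in the tail and differentiates into striated larval muscle. Foxf, a forkhead factor, and Gata4/5/6, a GATA zinc-finger factor, act in the progenitor branch, and Foxtun4 is another forkhead gene expressed there. The muscle cells are thus the sister lineage in which the targets are little used, and the comparison asks which of their genes differed when the targets were mutated.

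The embryos carried CRISPR/Cas9 reagents against Foxf, Gata4/5/6 or Foxtun4, or, in the control, guides against the tyrosinase gene Tyr. All 4 conditions shared the Mesp > GFP reporter, which was used for sorting and which carried a pair of sample barcodes for each condition. The 4 conditions were pooled into each of 2 droplet libraries of methanol-fixed, sorted cells, labelled repeats 1 and 2 (library 1 and library 2 here). Electroporated plasmids are inherited mosaically in Ciona, and no measurement of mutation in single cells was used here. The Mesp driver of Cas9, which would confine mutation to the B7.5 lineage, is stated for the embryos of the study's imaging screen and not separately for these libraries.

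A cell was assigned to a condition when each of its 2 sample barcodes was seen in 1 or more UMIs (unique molecular identifiers, counted transcripts) and that pair made up 75% or more of all UMIs from the mapped pairs. It was taken as muscle when 4 genes together held at least 1% of its gene UMIs. These were 3 copies of Myl1, a myosin light chain gene, and Smyd1, a methyltransferase gene of striated muscle. This gave 364 muscle cells, 88 in library 1 and 276 in library 2, of 624 assigned cells, 869 cell barcodes in the CRISPR libraries and 3438 in the series. The other 260 assigned cells are called cells under the gate. The labels name all the cells cardiopharyngeal progenitors, whereas 58.3% of the assigned cells were over the muscle gate.

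The median muscle cell had 5.17% of its UMIs in the gate genes and the median cell under the gate 0.159%. The values just inside the threshold were 1.06, 1.08 and 1.11% and those just outside were 0.988, 0.934 and 0.932%, and 58 assigned cells lay between 0.5 and 3%. Taken as a sum, the muscle markers that the gate did not use were higher in muscle than under the gate. Single members are not given here and need not each follow the sum. Myf5, a myogenic determination factor, Tnnt2 and Tnni1 (troponins), Actc1 (an actin), Ckm (muscle creatine kinase) and the titin gene Ttn together reached 32013 to 37505 CPM (UMIs per 1000000 gene UMIs) in the 8 sums of muscle cells. Their sum was 12287 to 16124 CPM under the gate. The 12 progenitor markers held a median of 0.0179% of the UMIs of a muscle cell, whereas their medians in the sums under the gate ran from 0.876 to 1.67%.

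The 8 sums, 1 per library and condition, held 344915 to 3135227 UMIs, with medians of 27929 to 34231 UMIs per muscle cell. Library 1 was the smaller one (5299026 UMIs over 231 cell barcodes, against 14905325 over 638), and its Foxf sum rested on 10 cells and its Foxtun4 sum on 14. The libraries shared 7 cell barcodes, whose copies in library 2 held 1.27 to 1.43% of the UMIs of the copies in library 1. Of the shared barcodes, 1 control cell in library 2 and 1 Gata4/5/6 cell in library 1 were muscle members. Leaving them out changed no count of called genes in muscle.

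A small set of muscle cells carried RNA of other cell types. The gene KY.Chr1.2380, an epidermis marker, had at least 10 UMIs in 20 muscle cells, of which 10 were control, 8 Gata4/5/6 and 2 Foxtun4 cells, and none was a Foxf cell. Its level was 272 and 175 CPM in control muscle, 8.70 and 17.7 CPM in Foxf, 18.2 and 632 CPM in Gata4/5/6 and 26.8 and 337 CPM in Foxtun4 muscle (libraries 1 and 2). A single cell gave 881 of the 1634 UMIs in the Gata4/5/6 sum of library 2. A further mark was the progenitor list, at 0.1% or more of the UMIs of 23 muscle cells, of which 10 were control, 3 Foxf, 6 Gata4/5/6 and 4 Foxtun4 cells. Its summed level in muscle was 307 and 444 CPM in control, 235 and 410 in Foxf, 508 and 442 in Gata4/5/6 and 168 and 392 in Foxtun4. Of its 12 genes, Svep1-KY.Chr5.734 was at 0 in all 8 sums, and Enpp3-KY.Chr2.1038 had a mean log2 fold change of -0.24. Other marker lists were low in the 8 muscle sums, with 117 to 156 CPM for the founder list, 44.7 to 101 CPM for notochord, 39.2 to 72.5 CPM for nervous system and 0 to 3.01 CPM for mesenchyme. Whether these cells are doublets or carry free RNA was not tested. Counts of calls and the values of some named genes are also given without them below. Other than the targets, list members named for an unadjusted p under 0.05 are given only with them.

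The share of assigned cells in the muscle gate was 50.7% and 56.8% in control (37 of 73 and 96 of 169 cells), and 37.0% and 52.0% in Foxf CRISPR (10 of 27 and 52 of 100). It was 65.9% and 66.1% in Gata4/5/6 CRISPR (27 of 41 and 72 of 109), and 70.0% and 65.9% in Foxtun4 CRISPR (14 of 20 and 56 of 85). In both libraries the Gata4/5/6 and Foxtun4 shares were above the control share and the Foxf share was below it. Over both libraries the exact 95% Clopper-Pearson intervals were 48.5 to 61.3% for control, 39.9 to 57.8% for Foxf, 57.8 to 73.5% for Gata4/5/6 and 56.8 to 75.6% for Foxtun4, and each overlapped that of control. The intervals cover counting error alone, and with 2 libraries per condition no test was made. With the gate at 0.5% the Foxf share was 60.6% rather than 48.8%, so its place below control rests on the threshold.

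**Figure D1:**
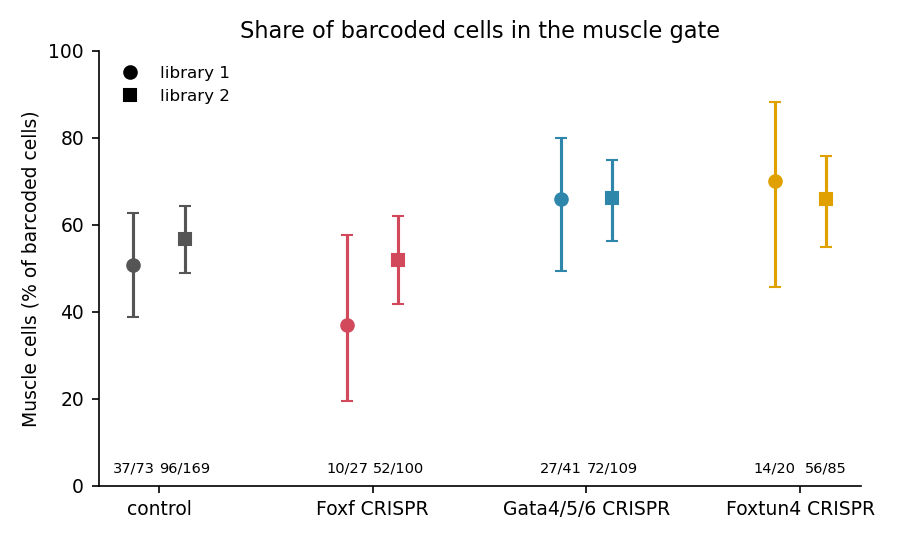
Share of barcoded cells in the muscle gate (percent, vertical axis) for each condition, with circles for library 1, squares for library 2, bars for exact 95% Clopper-Pearson intervals and muscle cells over assigned cells printed at the base. The Foxf shares of 37.0% and 52.0% are the lowest in their libraries, and the control intervals overlap those of every condition within each library.

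The targeted genes themselves were close to the detection floor in muscle, and each was lowest or near 0 where it was targeted. Foxf (Foxf1-KY.Chr3.1005) had 7 and 38 UMIs in control muscle (7.03 and 12.1 CPM in libraries 1 and 2) and 0 and 1 UMI in Foxf CRISPR muscle. In Gata4/5/6 CRISPR muscle it had 28 and 30 UMIs (30.0 and 11.61 CPM), and in Foxtun4 CRISPR muscle 1 and 45 (2.24 and 25.5 CPM). Over both libraries the ratio of Foxf CRISPR to control was 0.0464 (1 against 45 UMIs, 95% counting interval 0.00115 to 0.272). The transcripts came from few cells, 11 of 133 in control muscle and 1 of 62 in Foxf CRISPR muscle, with up to 18 UMIs in 1 control cell. In the cells under the gate the same gene was at 540 and 440 CPM in control and 66.4 and 144 CPM in Foxf CRISPR.

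Gata4/5/6 (Gata5-KY.Chr6.625) had 10 and 17 UMIs in control muscle (10.0 and 5.42 CPM) and 1 and 2 UMIs in Gata4/5/6 CRISPR muscle. The ratio over both libraries was 0.131 (3 against 27 UMIs, counting interval 0.0253 to 0.424). Under the gate it was at 214 and 230 CPM in control and 88.1 and 66.0 CPM in Gata4/5/6 CRISPR. Foxtun4 (Foxl1-KY.Chr5.382) had 7 and 22 UMIs in control muscle and 2 and 3 in Foxtun4 CRISPR muscle, with a ratio of 0.322 (5 against 29 UMIs, counting interval 0.0974 to 0.842). Under the gate it was at 305 and 280 CPM in control and 110 and 68.4 CPM in Foxtun4 CRISPR, a ratio of 0.259 (counting interval 0.186 to 0.351). The pair keyed FoxG in the study's barcode key was taken as Foxtun4, and the Foxtun4 level in its cells was the lowest of the 4 conditions under the gate.

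In the fit across all genes (edgeR quasi-likelihood test with Benjamini-Hochberg adjustment) neither Foxf1-KY.Chr3.1005 under Foxf CRISPR (unadjusted p = 0.0084) nor Gata5-KY.Chr6.625 under Gata4/5/6 CRISPR (unadjusted p = 0.0024) passed in muscle, and Foxl1-KY.Chr5.382 was below the filter on low counts. Without the 23 muscle cells that carried progenitor markers the log2 fold change of Foxf1-KY.Chr3.1005 moved from -4.14 to -1.33, but the gene is itself 1 of the 12 markers that chose these cells, so this value is a description only. With the gate at 0.5% it was 0.0087. The part of cells near the gate in this difference was not tested.

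**Figure D2:**
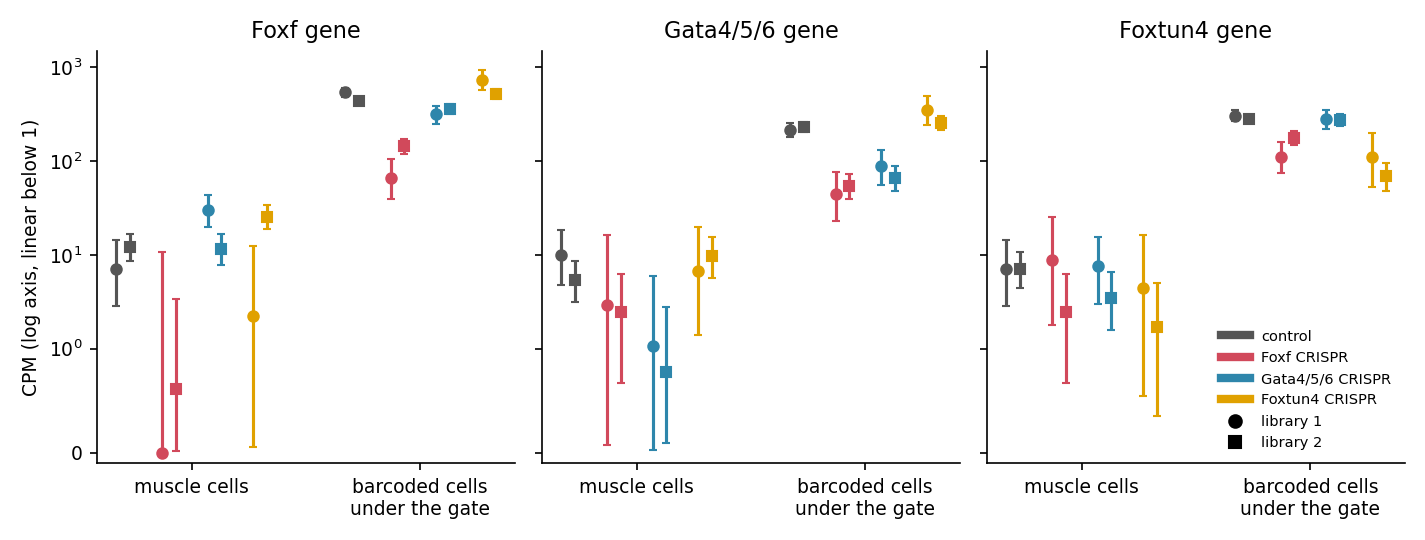
Level of the 3 targeted genes in CPM (vertical axis, logarithmic above 1 and linear below) in muscle cells and in barcoded cells under the gate, coloured by condition, with circles for library 1, squares for library 2 and bars for exact 95% Poisson intervals. In control, Foxf is at 7.03 and 12.1 CPM in muscle and at 540 and 440 CPM under the gate, and each target is lower in its own condition than in control under the gate.

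No gene was called in muscle in any targeted condition. A call was an adjusted p under 0.05 with an absolute log2 fold change over 0.5. Of 6393 genes tested, 0 (0.0%) were called under Foxf CRISPR, 0 under Gata4/5/6 CRISPR, 0 under Foxtun4 CRISPR and 0 for the mean of the 3 conditions against control. At an unadjusted p under 0.05 there were 241 genes for Foxf (3.77% of those tested), 101 for Gata4/5/6 (1.58%), 151 for Foxtun4 (2.36%) and 106 for the mean (1.66%). DESeq2 also called 0, with 103, 18, 30 and 24 genes at an unadjusted p under 0.05. The smallest adjusted p of edgeR in the 4 contrasts was 0.9998. Differences between targeted conditions gave 0 calls too, with 392 genes at an unadjusted p under 0.05 for Foxf minus Gata4/5/6 (6.13%, smallest adjusted p by edgeR 0.354), 297 for Foxf minus Foxtun4 (4.65%) and 223 for Gata4/5/6 minus Foxtun4 (3.49%). The labels call the libraries repeats without saying that they came from separate embryo cultures, so these p-values measure only the spread between the 2 libraries.

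The count of 0 depended on the filter on low counts. Without it, edgeR called 113 genes under Foxf (12 higher and 101 lower), 49 under Gata4/5/6, 22 under Foxtun4 and 25 for the mean, of 13321 tested, and 107 of the 113 were among the genes tested with the filter. The prior degrees of freedom, which set how far the spread of each gene is drawn to the common trend, were 7.32 with the filter and infinite without it. Of the 113 genes, 74 (65.5%) had at least 20% of their muscle UMIs in 1 cell. Without the filter and without the 20 cells with the epidermis marker, 12 genes were called under Foxf, 50 under Gata4/5/6, 6 under Foxtun4 and 7 for the mean. With the filter, leaving out 1 Gata4/5/6 sum gave 9 calls (without library 1) or 22 (without library 2) in that contrast and 2 or 8 for the mean, in fits that assume the lone sum to vary like the other groups.

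The precision of the fit depended on the level of the gene. Of the 1024 genes with at least 100 CPM in control muscle, the 95% interval of the fold change lay within 2-fold in either direction for 94.7% under Foxf, 96.7% under Gata4/5/6, 96.4% under Foxtun4 and 98.0% for the mean. Of the 4139 genes with 10 to 100 CPM, it did so for 54.5, 65.4, 55.4 and 81.8%. Of the 1230 genes below 10 CPM, 0 were bounded within 2-fold under Foxf, 23 under Gata4/5/6, 9 under Foxtun4 and 171 (13.9%) for the mean.

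Contractile genes lay mostly in the well-measured range. The gate genes, which the rule itself used, had mean log2 fold changes from -0.02 (Myl1-KY.Chr1.2008) to 0.03 (Myl1-KY.Chr1.2011), given as a description. The thin filament, the actin track with its troponin and tropomyosin switch, had 18 of 20 listed genes tested and 0 called in every contrast. Its summed level was 218235 and 216178 CPM in the control sums and 205010 to 216580 CPM in the 6 targeted sums, of which 4 lay below both control sums. The largest actin copy, Actg2-KY.Chr1.2388, had 47784 and 44441 CPM in control, 42654 and 45669 in Foxf, 43985 and 44501 in Gata4/5/6 and 44037 and 45235 in Foxtun4 muscle, and its mean log2 fold change was -0.05 (SE 0.09, 95% interval -0.25 to 0.15). The tropomyosin gene Tpm1-KY.Chr3.1115 had a mean log2 fold change of -0.10 (95% interval -0.30 to 0.11).

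Single members of this list stood out without passing the test. Tnnc1-KY.Chr6.34, a troponin C gene for the calcium switch, was at 796 and 658 CPM in control and 267 and 487 CPM in Foxf muscle, so that both Foxf sums lay below both control sums. Its log2 fold change was -0.92 (95% interval -1.69 to -0.16, unadjusted p = 0.0226). In the other targeted conditions it ranged from 623 to 1101 CPM, with both sides of the control values represented. How many of all genes tested had both targeted sums beyond both control sums was not counted. Such separations, here and below, are descriptions only. Actc1-KY.Chr11.686, an actin gene, was at 1144 and 1259 CPM in control and 1411 and 1722 CPM in Gata4/5/6 muscle, with a log2 fold change of 0.37. Its remaining 16 tested members had an unadjusted p of 0.05 or more in each of the 4 contrasts.

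The thick filament, titin and Z or M line list, which holds the myosins and the scaffold proteins of the sarcomere, had 24 of 26 genes tested and 0 called. Its summed level was 89435 and 86688 CPM in control and 83974 to 97274 CPM in targeted muscle. Under Foxtun4 CRISPR, 22 of 24 members had a positive log2 fold change, with a median of 0.13 against 0.00 over all genes tested. The thin filament (13 of 18 positive, median 0.08) and the excitation, calcium and energy list (14 of 16, median 0.11) also lay mostly above 0. So did the study's tail muscle gene cluster 6 (422 of 606, median 0.09). Summed CPM, which the fit's normalization does not scale, followed this only in part. Under Foxtun4 the thin filament was at 216427 and 212822 CPM (libraries 1 and 2), each below the control of its library. The excitation list, at 50696 and 45418 CPM, was above control in library 1 alone. The thick filament list (97274 and 89416 CPM) and cluster 6 were above control in both. The part of the normalization was not tested. In the thick filament list 1 member had an unadjusted p under 0.05 for Foxtun4. This was Ttn-KY.Chr9.1127, a titin gene, at 11577 and 10773 CPM in control and 14921 and 12094 CPM in Foxtun4 muscle (log2 fold change 0.35). The light chain gene Myl7-KY.Chr8.907 and the heavy chain gene Myh2-KY.Chr11.771 had mean log2 fold changes of 0.01 and 0.02, with intervals of -0.23 to 0.24 and -0.20 to 0.23. Pdlim7-KY.Chr6.646, a Z-line adaptor gene, was at 18.1 and 18.5 CPM in control and 79.4 and 32.1 CPM in Gata4/5/6 muscle (log2 fold change 1.51), and 1 cell held 13.50% of its muscle UMIs.

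Excitation, calcium and energy genes (acetylcholine receptor subunits, calcium channels and pumps, creatine kinases) had 16 of 19 members tested and 0 called. Their sum was 48403 and 45600 CPM in control and 45254 to 50696 CPM in targeted muscle. The calcium pump genes Atp2a3-KY.Chr11.575 and Atp2a3-KY.Chr11.572 had mean log2 fold changes of -0.02 and -0.01, with 95% intervals of -0.25 to 0.22 and -0.23 to 0.21. Stac3-KY.Chr1.2454, whose product couples excitation to calcium release in vertebrate muscle, was at 18.1 and 9.89 CPM in control and 48.3 and 27.5 CPM in Gata4/5/6 muscle, with a log2 fold change of 1.48 and an unadjusted p under 0.05. It was the only tested member of this list with such a p in the 4 contrasts.

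**Figure D3:**
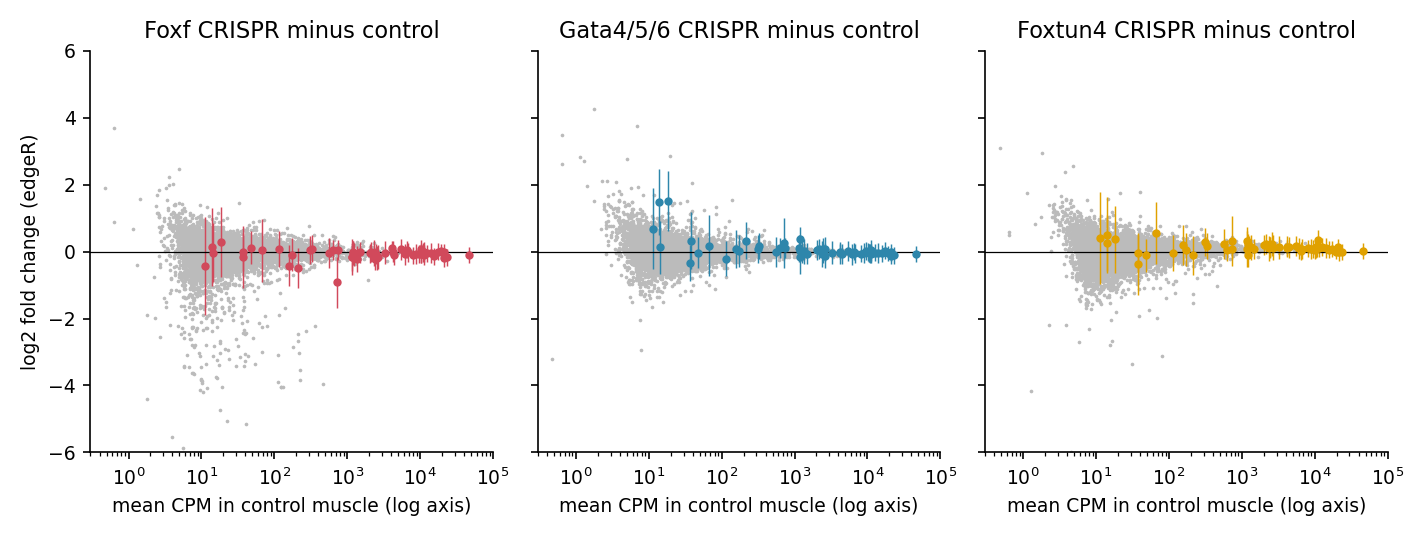
Log2 fold change against control (vertical axis) by the mean control level in CPM (horizontal axis, logarithmic) for each targeted condition in muscle. Grey points are the 6393 genes tested, coloured points are the 58 tested contractile, excitation and energy genes with bars for 95% intervals, and 5 genes for Foxf and 2 for Foxtun4 lie beyond the axis. The coloured points narrow around 0 as the level rises, and the grey points spread downward at low levels under Foxf.

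Muscle regulators had 5 of 6 members tested and 0 called. Their summed level was 3804 and 3580 CPM in control and 3697 to 4505 CPM in targeted muscle, with 4 of 6 targeted sums above both control sums. Myf5-KY.Chr14.1058, the myogenic determination factor, was at 329 and 380 CPM in control, 580 and 464 in Foxf, 363 and 323 in Gata4/5/6 and 409 and 365 in Foxtun4 muscle. Both Foxf sums were above both control sums, and the log2 fold change was 0.51 (95% interval 0.17 to 0.85, unadjusted p = 0.0075). Snai2-KY.Chr3.1382, a Snail-family repressor gene, was at 145 and 159 CPM in control and 235 and 210 CPM in Foxf muscle (log2 fold change 0.51, unadjusted p = 0.0093). Neither passed the adjustment by edgeR. The homeobox gene Meox2-KY.Chr8.1018 had a mean log2 fold change of 0.12 (95% interval -0.16 to 0.40).

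Cell cycle genes had 17 of 18 members tested and 0 called. The summed level was 1568 and 1670 CPM in control and 1322 to 1719 CPM in targeted muscle. Under Foxtun4 CRISPR, 15 of 17 members had a negative log2 fold change, with a median of -0.34 against 0.00 over all genes, and 4 (23.5% against 2.36%) had an unadjusted p under 0.05. These were Ccna1-KY.Chr2.535 (cyclin A), Mcm5-KY.Chr8.692 (replicative helicase), Pcna-KY.Chr12.849 (replication clamp) and Aurka-KY.Chr7.541 (mitotic kinase). Aurka-KY.Chr7.541 was at 78.3 and 75.3 CPM in control and 44.7 and 48.2 CPM in Foxtun4 muscle, and Pcna-KY.Chr12.849 at 14.06 and 21.1 CPM in control and 2.24 and 10.8 CPM in Foxtun4 muscle. Both had each Foxtun4 sum below each control sum, given as a description. The 2.24 CPM of Pcna-KY.Chr12.849 in library 1 is 1 UMI, under the detection floor of 3 UMIs (6.71 CPM in that sum). Under Gata4/5/6 CRISPR the median was -0.24, also with 15 of 17 negative, and 0 members reached an unadjusted p under 0.05. Under Foxf CRISPR the median was 0.00. The members with the highest control level, Cdkn1b-KY.Chr2.18 (a cyclin-dependent kinase inhibitor gene) and Cdc25a-KY.Chr5.722 (a phosphatase gene that acts on those kinases), had mean log2 fold changes of 0.14 and -0.02. These conditions share their control sums, so their directions are not independent.

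Stress and damage genes (heat shock proteins, immediate early genes and p53 family genes) had 16 of 18 members tested, 0 called and 0 at an unadjusted p under 0.05 in the 4 contrasts. Their summed level was 8195 and 8637 CPM in control and 8004 to 9033 CPM in targeted muscle. The chaperone genes Hspa2-KY.Chr7.173 and Dnaja1-KY.Chr3.1242 had mean log2 fold changes of 0.03 and 0.01. The study's gene cluster 6, which it drew from its time series and which holds tail muscle genes, had 606 of 624 genes tested in muscle, 0 called, and 25 (4.13%), 10 (1.65%) and 16 (2.64%) at an unadjusted p under 0.05 for Foxf, Gata4/5/6 and Foxtun4. These shares were near those of all genes tested (3.77, 1.58 and 2.36%). Its median log2 fold changes were 0.00, -0.01 and 0.09. Cluster 5, the mature progenitor genes, had 622 of 859 tested, 0 called and medians of -0.06, -0.02 and 0.02. Its member with the highest control level, the elongation factor gene Eef1a2-KY.Chr14.194, had a mean log2 fold change of -0.04.

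**Figure D4:**
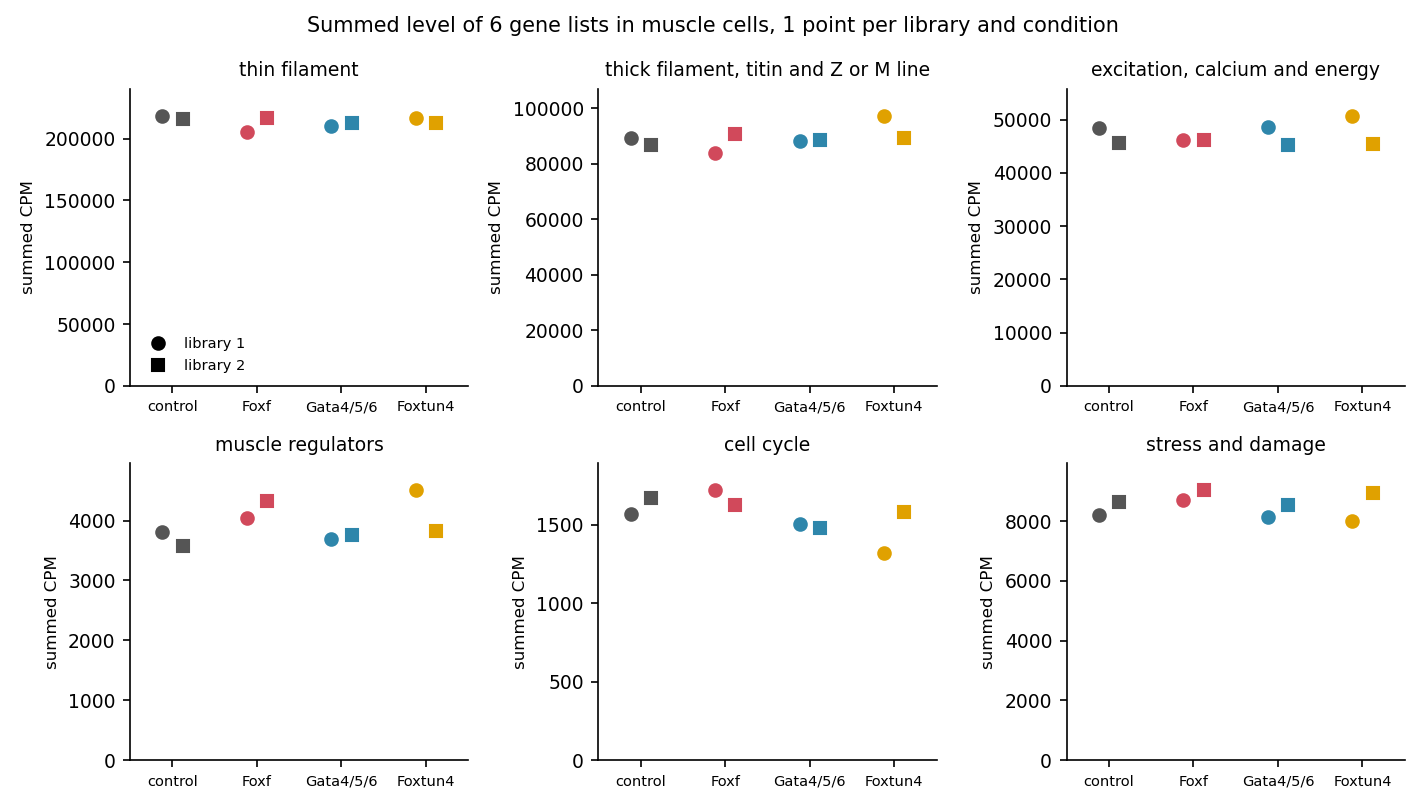
Summed level in CPM (vertical axes from 0) of 6 gene lists in muscle cells by condition, with circles for library 1 and squares for library 2. For the thin filament the control sums are 218235 and 216178 CPM and the targeted sums 205010 to 216580 CPM, and in the muscle regulator panel 4 of 6 targeted sums lie above both control sums.

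The genes with the smallest p in each contrast did not pass the test and are given as values. Under Foxf CRISPR the higher ones included Mmachc-KY.Chr4.1190, a vitamin B12 trafficking gene, and KY.Chr8.188. KY.Chr8.188 was at 270 and 325 CPM in control and 577 and 464 CPM in Foxf muscle (log2 fold change 0.76). For Mmachc-KY.Chr4.1190 (5.02 and 4.78 CPM in control, 17.4 and 31.8 in Foxf), 1 cell held 32.5% of the muscle UMIs.

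The 3 lower ones under Foxf were Svep1-KY.Chr10.1028, an adhesion protein gene, Slc18a2-KY.Chr4.767, a vesicular monoamine transporter gene, and KY.Chr13.373. Slc18a2-KY.Chr4.767 was at 26.1 and 23.6 CPM in control and 8.70 and 8.56 CPM in Foxf muscle, with no overlap (log2 fold change -1.51, 95% interval -2.34 to -0.68). It was at 0 in 7 of the 8 sums under the gate. KY.Chr13.373 had 2 UMIs in Foxf against 128 in control muscle, a ratio of 0.0326 (counting interval 0.00391 to 0.120). Svep1-KY.Chr10.1028 had 2 against 56 UMIs, a ratio of 0.0745 (counting interval 0.00881 to 0.282). Without the 20 cells with the epidermis marker these last genes fell below the filter, and with the gate at 0.5% their log2 fold changes were 0.99 and 0.36, whereas Slc18a2-KY.Chr4.767 had a log2 fold change of -1.61 without the 20 cells.

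Fewer genes had a large decrease under Foxf CRISPR when these 20 cells were left out. There were 107 genes of 6393 (1.67%) with a log2 fold change below -2, and for 73 of them 1 muscle cell held at least 20% of the UMIs. Without the 20 cells, 8 of 6203 genes tested (0.129%) had such a fold change. Genes that fell below the filter on low counts, Svep1-KY.Chr10.1028 and KY.Chr13.373 among them, left this count. How many of the 107 were still tested was not counted. Increases beyond 4-fold were fewer, with 5 genes, each with at least 20% of its UMIs in 1 cell. Over all genes tested, 2.41% had at least 20% of their muscle UMIs in 1 cell, whereas 22.8% of those with an unadjusted p under 0.05 did so under Foxf, 22.8% under Gata4/5/6 and 7.95% under Foxtun4.

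Under Gata4/5/6 CRISPR the 3 higher genes each rested largely on 1 cell. KY.Chr11.699 had 86.1% of its muscle UMIs in 1 cell, Hspg2-KY.Chr3.1496, a basement membrane proteoglycan gene, 68.1%, and KY.Chr12.1007 48.0%. Hspg2-KY.Chr3.1496 was at 5.02 and 8.93 CPM in control and 214 and 12.39 CPM in Gata4/5/6 muscle. The 3 lower were the target Gata5-KY.Chr6.625, KY.Chr9.917 and KY.Chr8.734. KY.Chr8.734 was at 30.1 and 22.3 CPM in control and 12.88 and 14.3 CPM in Gata4/5/6 muscle (log2 fold change -0.89, 95% interval -1.56 to -0.23). KY.Chr9.917, at 16.1 and 15.0 against 5.37 and 5.42 CPM, moved from -1.51 to -0.98 without the cells carrying progenitor markers and to -2.11 without those with the epidermis marker.

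Under Foxtun4 CRISPR the 3 higher genes were KY.Chr11.118, Plcd1-KY.Chr9.253, a phospholipase C gene, and KY.Chr14.1067. Plcd1-KY.Chr9.253 was at 273 and 277 CPM in control and 494 and 347 CPM in Foxtun4 muscle, and at 338 and 296 in Gata4/5/6 and 354 and 302 in Foxf muscle. Every targeted sum lay above both control sums, and its log2 fold change under Foxtun4 was 0.67 (95% interval 0.24 to 1.104). KY.Chr14.1067 rested on library 2 (4.02 and 3.51 CPM in control, 2.24 and 27.8 in Foxtun4), and its log2 fold change was -0.56 without the Foxtun4 sum of that library. The 3 lower were Vim-KY.Chr3.1290, an intermediate filament gene, KY.Chr2.1532 and Id2-KY.Chr7.1153, an inhibitor of bHLH factors. Id2-KY.Chr7.1153 was at 182 and 153 CPM in control and 96.2 and 107 CPM in Foxtun4 muscle (log2 fold change -0.65, 95% interval -1.04 to -0.27). KY.Chr2.1532 was at 387 and 383 CPM in control and 217 and 272 CPM in Foxtun4 muscle (log2 fold change -0.58).

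Vim-KY.Chr3.1290 also led the lower genes for the mean of the 3 conditions. It was at 99.4 and 60.3 CPM in control and 6.243 to 55.0 CPM in the 6 targeted sums, with a mean log2 fold change of -2.16 (95% interval -3.15 to -1.18). Without the 20 cells with the epidermis marker the mean log2 fold change was 0.21, and that for Foxtun4 moved from -3.13 to -0.46. The other genes with the smallest p for the mean included KY.Chr12.228 (0.57) and KY.Chr11.1104 (1.30) among the higher, and Svep1-KY.Chr10.1028 (-2.14) and KY.Chr4.954 (-2.45) among the lower. The last of these was also below the filter without the 20 cells.

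The cells under the gate gave a different count in the same libraries. Of 6991 genes tested there by edgeR, 114 were called under Foxf CRISPR, 1.631% of those tested, of which 28 were higher and 86 lower. Gata4/5/6 CRISPR gave 3 calls (0.04291%), all lower, Foxtun4 CRISPR 0 and the mean 8 (0.1144%), all lower. Of the 114, 79 passed the filter on low counts in muscle and 0 of them were called there. An unadjusted p under 0.05 was found for 14 of the 79 (17.7%, against 3.77% of all genes tested in muscle). These include the target Foxf1-KY.Chr3.1005 itself. They also include KY.Chr1.1059 (-1.19 in muscle, 1.36 under the gate) and Zfp608-KY.Chr1.2196 (0.38 and -1.03), which went in opposite directions. The 55 that were lower under the gate (median log2 fold change -1.58) had a median of -0.44 in muscle, with 42 also negative. The 24 that were higher (median 1.44) had a median of 0.03 in muscle, with 15 also positive. Some of the 79 were near the detection floor in muscle, such as Ddr2-KY.Chr9.1025 (10.0 and 9.25 CPM in control, 0 and 3.67 in Foxf). A gene low in 1 condition could pass the filter through the sums where it was higher. These medians and counts are therefore descriptions only. Without the 23 muscle cells with progenitor markers, 11 of 69 (15.9%) had an unadjusted p under 0.05 and the median of the lower genes was -0.28. Without the 20 cells with the epidermis marker, 13 of 74 (17.6%, against 2.95% of all genes tested) had such a p, and that median was -0.45. The part of these cells, and of free RNA from the progenitors in the same droplet pool, in the values of lower genes in muscle was not tested.

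**Figure D5:**
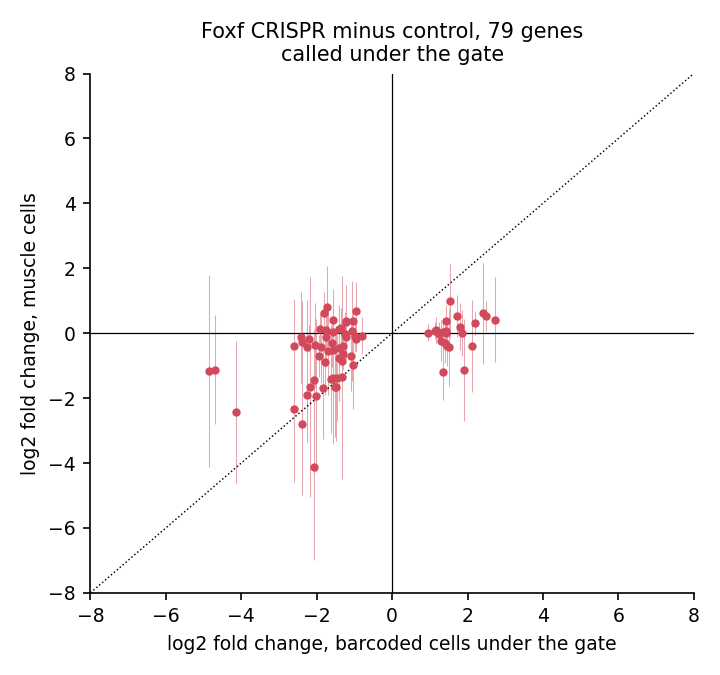
Log2 fold change of Foxf CRISPR against control in muscle cells (vertical axis, bars for 95% intervals) by that in barcoded cells under the gate (horizontal axis) for the 79 genes called under the gate and tested in muscle, with a dotted line for equal change. Genes lower under the gate have a median of -1.58 there and -0.44 in muscle, and those higher have medians of 1.44 and 0.03. Those higher include the gate gene Myl1-KY.Chr1.2010.

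Whether an effect differed between muscle and the cells under the gate was asked with an interaction term in a fit of all 16 sums. With edgeR, 0 of 7685 genes (0.0%) were called for Foxf, Gata4/5/6, Foxtun4 or their mean, with 512 (6.66%), 217 (2.82%), 275 (3.58%) and 232 (3.02%) at an unadjusted p under 0.05 and a smallest adjusted p of 0.0579 for Foxf. DESeq2 called 12 genes for Foxf, 0 for Gata4/5/6, 2 for Foxtun4 and 3 for the mean, and edgeR called 6 for Foxf without the shared cell barcodes. The 12 include the gate gene Myl1-KY.Chr1.2010, whose level in each class the rule itself limits. With the library as a replicate block edgeR called 1 gene for the mean. For Foxf the threshold was thus close, and the count of genes depended on the fit.

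Called in each of 3 alternative fits for Foxf were 6 genes, of which those described here were singled out after their values were seen. Asb2-KY.Chr7.1211, an ankyrin repeat gene among the progenitor markers, was at 108 and 110 CPM in control and 119 and 124 CPM in Foxf muscle (log2 fold change 0.14, 95% interval -0.30 to 0.58). Under the gate it was at 2041 and 2292 CPM in control and 432 and 665 CPM in Foxf CRISPR (log2 fold change -1.90). Its interaction was 2.04 (SE 0.34, adjusted p by edgeR 0.0579). Mthfd1-KY.Chr3.366, a folate enzyme gene, had an interaction of 2.47. KY.Chr10.629 (-1.91), Zswim4-KY.Chr8.601 (-1.98) and KY.Chr1.1059 (-2.54) went the other way, being higher under the gate with Foxf CRISPR. KY.Chr1.1059 was also at a lower level in Foxf than in control muscle (log2 fold change -1.19, 95% interval -2.05 to -0.33, unadjusted p = 0.011, not passing the adjustment by edgeR), against 1.36 under the gate. KY.Chr10.629 was at 219 and 208 CPM in control and 287 and 259 CPM in Foxf muscle, and at 39.4 and 38.4 against 148 and 193 CPM under the gate.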

How the data were processed

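The authors deposited UMI counts per gene and cell, not normalized, which come from Cell Ranger 3.0.1 and the KY2019 gene models, to which 21 sample barcode features had been added. Gene names are the study's matches to other species. The map of barcode pairs to conditions was read from the colour key of the study's appendix. Counts were summed per library and condition over all members, and no doublet caller was run. The 8 muscle sums were fitted together with edgeR 4.0.16 (R 4.3.3, TMM, filterByExpr, quasi-likelihood test). SE is the log2 fold change over the square root of F, and the common biological coefficient of variation was 17.9%. DESeq2 1.42.0 was an alternative, and only the edgeR fits were tested on simulated data. Clopper-Pearson, Poisson and conditional binomial intervals (scipy 1.17.1) and floors cover counting error only.

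The members and lists were chosen with earlier results of these data known. Named genes were the targets, the gate genes, the 3 higher and 3 lower genes with the smallest p in each contrast (none had 5 called), and in each list the 2 members with the highest control CPM. Others named had an unadjusted p under 0.05 or were chosen after their values were seen. Some genes that these rules select are not reported here. A repeat number marks 1 pooled library and so pairs the sums of the 4 conditions. Their deviations correlated at -0.14 to 0.25 between conditions in muscle and -0.27 to 0.08 under the gate. The main fit has no term for the library. The spread between libraries was 2.11 to 4.26 times that of counting in muscle (chi-square per degree of freedom), a ratio that also holds the variation between cells. Alternatives changed the gate, the barcode rule, the filter, the normalization, the cells and the sums used. The time series library and 245 unassigned CRISPR cell barcodes were not used.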

Additional observations from a re-analysis of the deposited data

How the results depend on the processing

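All 4 muscle contrasts gave 0 calls with DESeq2, RLE normalization, the replicate block (library as a term), the gate at 0.5% or 3%, the pair at 90%, 3 UMIs of each barcode, and without the cells with progenitor markers, with the epidermis marker or with shared barcodes. Summing the targeted conditions per library also gave 0. Without the filter on low counts there were 113 calls for Foxf, 49 for Gata4/5/6, 22 for Foxtun4 and 25 for the mean, and without both the filter and the cells with the epidermis marker 12, 50, 6 and 7. With cells of 10000 to 60000 UMIs alone there were 6 for the mean and 0 for each condition. Leaving out 1 sum gave 0 for Foxf and Foxtun4, 0 to 22 for Gata4/5/6 and 0 to 8 for the mean, with all the calls in fits without a Gata4/5/6 sum. The alternatives on shared barcodes, cell depth and the epidermis marker were chosen after seeing the data. Why these counts differ was not tested.

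For the interaction, DESeq2 called 12 genes for Foxf, 2 for Foxtun4 and 3 for the mean. With the replicate block 1 gene was called for the mean, KY.Chr1.2086 (log2 6.83), and the block changed no other call. With the other cells limited to those under 0.5% in the gate genes, 13 were called for Foxf and 1 for Gata4/5/6, and without shared cell barcodes 6 for Foxf. The 12 of DESeq2 and the 13 each include the gate gene Myl1-KY.Chr1.2010. Leaving out 1 sum gave 0 to 13 for Foxf (13 without Foxf library 2), 0 to 2 for Gata4/5/6, 0 to 6 for Foxtun4 (6 without Foxtun4 library 1) and 0 to 1 for the mean. The Foxf muscle share was 60.6% with the gate at 0.5%.

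Of 857 log2 fold changes of named genes under alternatives, 28 passed the threshold. A further 12 changed sign and either moved by more than the SE of the main fit or passed. The remaining 817 did not pass, and changes of sign within that SE are counted among them. With the gate at 0.5%, Foxf1-KY.Chr3.1005 (0.0087), Svep1-KY.Chr10.1028 (0.36) and KY.Chr13.373 (0.99) under Foxf and Smyd1-KY.Chr6.594 for the mean (-0.085) changed sign. Leaving out 1 sum gave -0.56 (without Foxtun4 library 2) to 2.90 for KY.Chr14.1067 under Foxtun4. For the mean without the cells with the epidermis marker, Vim-KY.Chr3.1290 was at 0.21 with the filter and 0.20 without it, and KY.Chr4.954 at 1.096 without it. For the mean, leaving out 1 sum gave -0.15 to 0.039 for Actg2-KY.Chr1.2388, -0.12 to 0.11 for Atp2a3-KY.Chr11.572 and -0.24 to 0.21 for Cdc25a-KY.Chr5.722, each positive without control library 1, and -1.38 to 0.58 for Enpp3-KY.Chr2.1038, positive without control library 2. Of the 1230 genes below 10 CPM in control, 0 under Foxf, 23 under Gata4/5/6, 9 under Foxtun4 and 171 for the mean were bounded within 2-fold. The parts of depth, spread between libraries and single cells in this were not tested.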

Other observations

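Cells that carried no clear barcode pair also included muscle. Of 70 unassigned cell barcodes in library 1 and 175 in library 2, 13 and 7 were over the muscle gate, and they entered no comparison.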
